A study of Mus musculus with 4 samples.

Results

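Splicing factor genes were followed in cultured mouse microglia, brain-resident macrophages, exposed to lipopolysaccharide (LPS). The members were all genes whose symbol begins with Srsf, Hnrnp, U2af, Sf3a, Sf3b or Snrp, 56 of the 24148 genes with a row in the count table: 11 Srsf, 21 Hnrnp, 3 U2af, 3 Sf3a, 6 Sf3b and 12 Snrp genes. Microglia were shaken from mixed glial cultures, plated again and left untreated (control, 2 libraries) or given LPS, the outer membrane component of Gram-negative bacteria sensed through Tlr4, at 10 ng/ml for 4 h (2 libraries). RNA depleted of ribosomal RNA was sequenced. The labels give no strain, age or sex, describe no sort for microglia, and leave unsaid if replicates were separate cultures, so p-values cover the spread among these 4 libraries, which may be technical. Genes named Snrnp, which encode other proteins of the small nuclear ribonucleoproteins, are outside the rule and were not analysed here.

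Introns are removed from pre-mRNA by the spliceosome, which is built from small nuclear ribonucleoproteins (snRNPs). U2af proteins recognise the 3′ splice site, the Sf3a and Sf3b complexes within U2 snRNP hold it at the branch point, and Snrp genes encode the Sm ring and other snRNP proteins. SR proteins (Srsf genes) mostly bind exonic enhancers and favour use of nearby splice sites, whereas many hnRNP proteins oppose them. Many SR protein genes carry a cassette exon with an early stop codon, a poison exon, whose inclusion sends the RNA to nonsense-mediated decay and lowers the amount of protein made.

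Without a term for the replicate number, no splicing factor gene passed the test for a difference between LPS and control. Of the 56 members, 36 reached the minimum for testing, 10 counts per library on average. Of these, 0 were called higher or lower by edgeR's quasi-likelihood test at an adjusted p under 0.05, where 8.34% of all 9548 genes tested were called. At an unadjusted p under 0.05 there was 1 member, Sf3b3, against 21.3% of all genes tested. DESeq2 and limma-trend called 0 members, against 10.1% and 8.16% of all genes. The limma-trend fit used log2 counts that were not scaled for library size. Leaving out control replicate 1 or 2 or LPS replicate 1 or 2 gave 0 member calls, against 7.86%, 8.65%, 3.85% and 4.96% of all genes. The same 0 was found with RLE scaling (8.36% of all genes), total-count scaling (10.0%, or 14.0% without the 10 most abundant genes), quantile normalization (8.86%), no filter (4.87%), a minimum of 50 counts (13.9%), the accession with the highest count per gene (8.44%) and genes with 1 accession (8.26%). None of these fits has a term for the replicate number, which the labels do not tie to a shared culture or day. An edgeR fit with that term called 8 members, Sf3b3 among them, against 30.7% of all genes tested. In the TMM-scaled edgeR fit without it, the fitted log2 fold changes of LPS over control ran from -0.67 (Srsf7) to 0.71 (Hnrnpa1). All 36 thus lay within 2-fold, as did 83.5% of all genes tested. For 17 members the 95% interval of the fold change also lay within 2-fold in either direction (26.8% of all genes tested); for the other 19 a 2-fold change was not excluded at this depth and number of libraries.

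The fitted values lay more often above than below those of other genes. The median log2 fold change was 0.21 over the 36 tested members and -0.046 over all genes tested, and 28 members lay above the latter value. Both LPS libraries exceeded both controls for 13 members (24.7% of all genes tested) and lay under both for 1, Sf3b2 (25.8% of all genes tested). This sign depends on the scaling: with total-count scaling the median of all genes tested moved from -0.046 to -0.48 and that of the members to -0.20, while 29 of the 36 members lay above the median of all genes. The size of the gap varied too. At a minimum mean count of 50 the medians were 0.11 for members and -0.035 for all genes, with 24 of 33 members above. Quantile normalization gave 0.057 and -0.14 (25 of 36 above), and no filter 0.32 and -0.18 (33 of 36 above). The share of all deposited counts that fell on the 56 members was 0.309% (95% exact binomial interval 0.303 to 0.314) and 0.359% (0.354 to 0.365) in control replicates 1 and 2 and 0.285% (0.281 to 0.290) and 0.299% (0.294 to 0.304) in LPS replicates 1 and 2. These intervals cover counting error only, and the controls lay outside each other's interval. After TMM scaling the summed level of the tested members was 2946 and 2833 CPM (counts scaled to the size of the library after TMM) in control and 3492 and 3308 CPM in LPS.

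**Figure D1:**
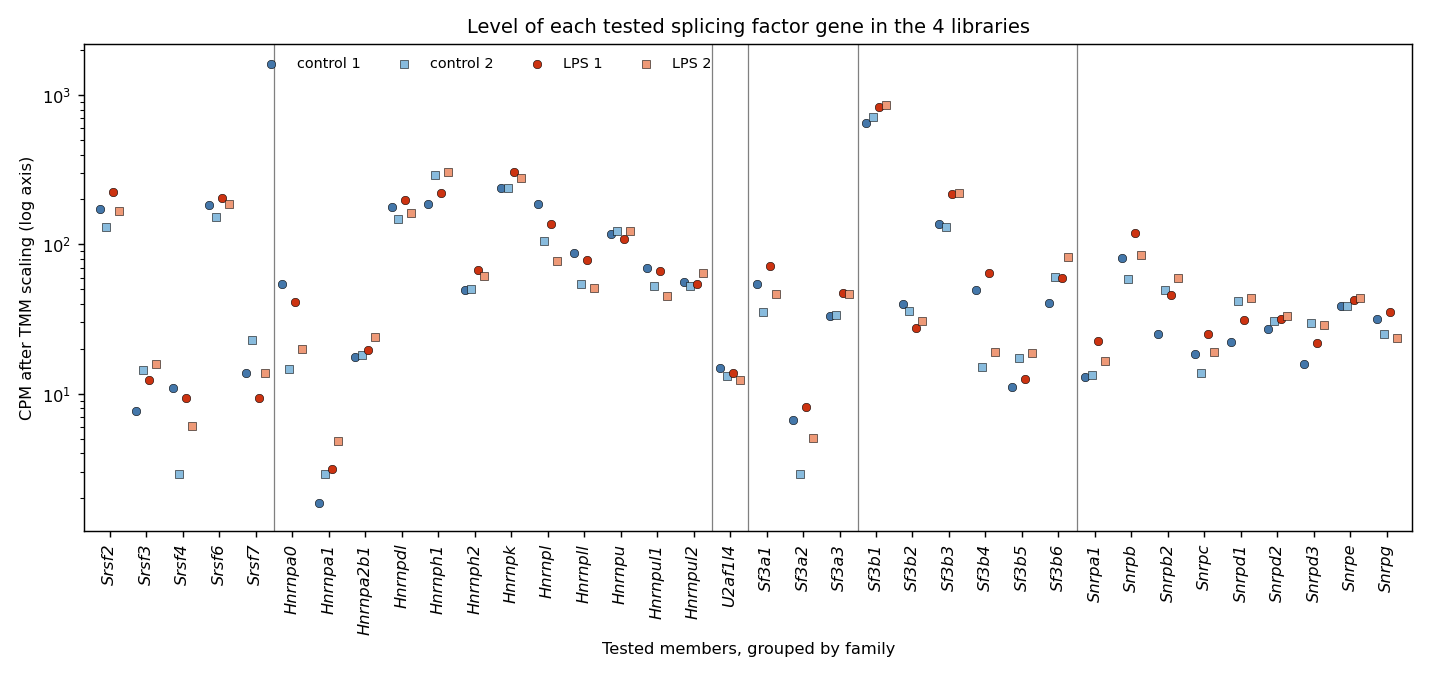
Level of each tested member in CPM after TMM scaling (log axis) in the 4 libraries, with members grouped by family along the horizontal axis; circles are libraries numbered 1, squares libraries numbered 2, dark and light blue are control 1 and 2, and dark and light red LPS 1 and 2. Sf3b1 had the highest CPM in every library (654 to 864), and the LPS points of most members lay among or close to the control points.

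Library totals ran from 3617176 to 5095630 counts. The tested microglia markers carried no call (9 of 11 tested, 0 called), with a summed level of 3213 to 3540 CPM in control and 2299 to 2393 CPM in LPS, and Itgam was at 0 counts; their part in the values of the splicing factor genes was not tested. Markers of other cells differed between library numbers: the summed astrocyte markers had 111 and 310.0 CPM in control and 127 and 442 CPM in LPS, and the summed oligodendrocyte markers had 386 and 56.6 CPM in control and 398 and 46.9 CPM in LPS, with 0 of 7 and 0 of 6 tested markers called. The astrocyte marker S100b went against its sum, with 37.3 and 2.71 CPM in control and 39.4 and 2.66 CPM in LPS. Some microglia markers differed between library numbers as well. Cx3cr1 had 330 and 54.4 CPM in control and 140 and 51.0 CPM in LPS. Csf1r had 680 and 319 CPM in control and 411 and 254 CPM in LPS. C1qb (393 and 586 CPM, then 349 and 442 CPM) and C1qc (434 and 531 CPM, then 302 and 354 CPM) went the other way. Neuronal (54.6 to 70.6 CPM), fibroblast (26.0 to 64.8 CPM) and endothelial markers (15.6 to 22.2 CPM) were low in all libraries, and Pdgfrb, Pecam1 and Tek were at 0 counts. In bulk RNA, a change in the number of cells of a type and a change in RNA per cell cannot be told apart.

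What the table measures differs between members, because counts were deposited per RefSeq transcript accession and summed here per gene. Of the 35 members with a single accession, 31 were tested, with a median mean count of 171.5 over these 35. Of the 21 members with more than 1 accession, 5 were tested, and the median mean count of the 21 was 0.75. Those 21 members had 65 accessions, of which 44 were at 0 in all 4 libraries. Of their 34 accessions whose exons in the GENCODE annotation lay wholly within other accessions of the gene, 2 had any count, against 19 of the 31 with at least 1 base of their own. Those 2 were the non-coding accessions of Hnrnpa2b1 (49 to 78 counts per library) and Srsf9 (2 to 5). Counts of the 21 members with more than 1 accession therefore cannot be taken as the level of the whole gene. Hnrnpul1 differed from the others in that a coding accession held 186 to 276 counts per library. Of the 3784 exonic bases of that accession, 2716 are its own. The counting mode is not given in the sources used here.

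Srsf3 and Srsf7 show what such a count held. In Srsf3 (chr17:29032660-29043372, GRCm38) the coding accession was at 0 in all 4 libraries and every count lay on the non-coding accession, which GENCODE classes as a target of nonsense-mediated decay. The bases that this accession shares with no other are 1 cassette exon of 456 bases (chr17:29039454-29039909, plus strand). In Srsf7 (chr17:80200080-80207369) the non-coding accession of the same class held 51 and 117 counts without and 37 and 56 with LPS, while the 4 coding accessions together held 1, 1, 2 and 1. Its own bases are a cassette segment of 460 bases (chr17:80204622-80205081, minus strand) and 2 bases at its 5′ end. Coding accessions have bases of their own too. The one of Srsf3 has 480, at 0 counts, and one of Srsf7 has 759, at 1 to 2 counts per library. Why the non-coding accession held the counts was not tested. The start of each cassette segment is shown to the first in-frame stop codon, and these bases are in no other accession of the gene. The sequences are from GENCODE transcripts on GRCm38, 5′ to 3′, with the stop codon in capitals.
Srsf3, chr17:29039454-29039487, plus strand: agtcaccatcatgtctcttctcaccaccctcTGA
Srsf7, chr17:80205054-80205081, minus strand: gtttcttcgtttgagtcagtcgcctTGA
In Srsf3 the stop comes after 124 codons, where the coding accession encodes 164 residues, and in Srsf7 after 137 codons, where the longest coding accession encodes 238. In both, most of the segment follows the stop (422 and 432 bases).

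**Figure D2:**
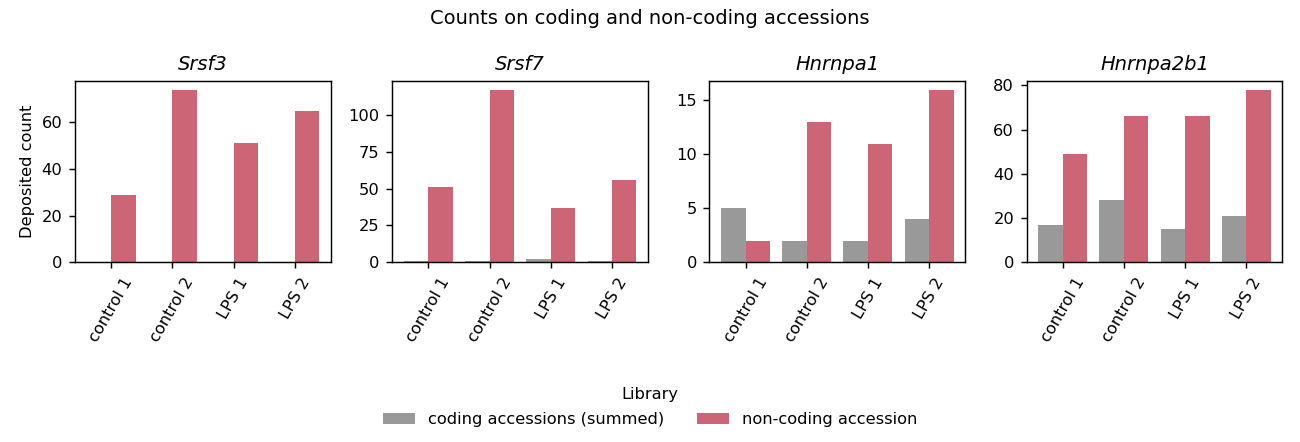
Deposited counts (vertical axes, scaled per gene) of Srsf3, Srsf7, Hnrnpa1 and Hnrnpa2b1 in the 4 libraries, with the coding accessions summed in grey and the non-coding accession in red. In Srsf3 and Srsf7 the coding accessions held 0 to 2 counts per library, against 29 to 117 on the non-coding accession.

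Among SR proteins, 5 of 11 genes were tested and 0 were called. The values of Srsf7 and Srsf3 rest on the accessions that hold the poison exon; unspliced RNA across that segment was not measured here. Srsf7, which couples splicing to mRNA export, had 13.8 and 22.9 CPM in control and 9.38 and 13.8 CPM in LPS. The higher LPS library reached the level of the lower control, so the groups touched. Its log2 fold change was -0.67 ± 0.38 (SE), the lowest of all members, with an adjusted p of 0.40 and a 95% interval of -1.61 to 0.27. It ran from -0.99 without control replicate 1 to -0.27 without control replicate 2. Srsf3, the smallest of the SR proteins, was counted 29 and 74 times without LPS and 51 and 65 times with it, or 7.68 and 14.3 against 12.3 and 15.7 CPM. Control replicate 1 was low and the other 3 libraries lay close together, and the log2 fold change was 0.33 ± 0.39 (adjusted p = 0.72), or -0.042 without control replicate 1. Since the coding accessions were at or near 0, no ratio of the poison exon accession to the coding accessions could be formed.

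Srsf2 and Srsf6 have a single accession and much higher counts. Srsf2, also known as SC35, a classical marker of nuclear speckles, had 172 and 131 CPM in control and 225 and 168 CPM in LPS. LPS replicate 2 lay just under control replicate 1, and the log2 fold change was 0.37 ± 0.25 (adjusted p = 0.48), or 0.15 without LPS replicate 1, 0.16 without control replicate 2 and 0.57 without either other library. Srsf6, an SR protein with a pair of RNA recognition motifs, had 185 and 153 CPM in control and 206 and 187 CPM in LPS, with both LPS libraries above both controls by a small margin. Its log2 fold change was 0.22 ± 0.20 (adjusted p = 0.63), with an interval of -0.28 to 0.72 that excludes a 2-fold change; it was 0.059 without control replicate 2, 0.15 without LPS replicate 1 and 0.35 without control replicate 1. Srsf4 was counted 41 and 15 times without LPS and 39 and 25 times with it, and its log2 fold change of 0.19 had an interval of -1.45 to 1.84. The other 6 genes were not tested: Srsf1, Srsf5, Srsf9, Srsf10 and Srsf11 have more than 1 accession and held 0 to 5 counts per library, and Srsf12, with a single accession, had counts of 9, 8, 1 and 3 (controls, then LPS). Srsf10 was at 0 throughout, which allows up to 3 counts per library, or 0.589 to 0.829 CPM of the deposited totals; such limits cover counting error only.

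Of the 21 Hnrnp genes, 12 were tested and 0 were called, with 7 fitted values above 0 and 5 below (median log2 fold change 0.13, or 0.027 without control replicate 2 and 0.24 without control replicate 1). Hnrnpk, which binds C-rich RNA and DNA, had 238 CPM in each control and 305 and 280.3 CPM in LPS. Both LPS libraries lay above the controls, which were equal at this precision, and the log2 fold change was 0.30 ± 0.18 (adjusted p = 0.43; interval -0.14 to 0.74). Hnrnph1, a binder of G-rich motifs, had 185 and 289 CPM in control and 220.1 and 304 CPM in LPS. Here the libraries numbered 2 were high in both groups, the groups overlapped, and the log2 fold change was 0.14 ± 0.29 (adjusted p = 0.86). Its paralog Hnrnph2 had 49.3 and 50.4 CPM in control and 67.6 and 61.1 CPM in LPS (log2 fold change 0.37 ± 0.20, adjusted p = 0.39). Reads from near-identical stretches of these paralogs may have been split or lost in counting.

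Hnrnpl, a binder of CA-rich RNA that regulates the exons of the phosphatase gene Ptprc, had the lowest fitted value of its family. Its levels were 188 and 105 CPM in control and 136 and 77.8 CPM in LPS. The libraries numbered 1 were the high ones in each group, so that LPS replicate 1 exceeded control replicate 2. The log2 fold change was -0.45 ± 0.39 (adjusted p = 0.61) and 0.013 without control replicate 1. The related Hnrnpll, which acts on the same exons in lymphocytes, had 87.4 and 54.4 CPM in control and 78.2 and 51.0 CPM in LPS, with full overlap (log2 fold change -0.13 ± 0.34). Hnrnpa0, an AU-rich element binder linked to inflammatory mRNAs in macrophages, had 54.3 and 14.7 CPM in control and 41.4 and 20.1 CPM in LPS. The 2 controls differed more from each other than either differed from an LPS library of the same number, and the interval of its log2 fold change of -0.16 ran from -1.81 to 1.49; the value was 1.04 without control replicate 1 and 0.27 without LPS replicate 2.

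Hnrnpu, the scaffold attachment factor, differed least among these genes, with 117 and 124 CPM in control and 109 and 123 CPM in LPS. Its log2 fold change of -0.049 ± 0.19 had an interval of -0.53 to 0.43. Hnrnpdl (0.16 ± 0.22), Hnrnpul1 (-0.12 ± 0.28) and Hnrnpul2 (0.12 ± 0.21) had log2 fold changes of like size, also with intervals inside 2-fold. Hnrnpa1 and Hnrnpa2b1, the archetypes of the family, were represented mainly by a non-coding accession. For Hnrnpa1 this accession held 2 and 13 counts without LPS and 11 and 16 with it, and the coding accessions together 5, 2, 2 and 4. The highest fitted value of all members, 0.71 ± 0.48 (adjusted p = 0.49), thus rested on 7 and 15 against 13 and 20 counts in all, and was 0.37 without LPS replicate 2, 0.44 without control replicate 1 and 1.07 without control replicate 2. For Hnrnpa2b1 the non-coding accession held 49 and 66 counts without LPS and 66 and 78 with it, and the gene's log2 fold change was 0.28 ± 0.26 (adjusted p = 0.63). GENCODE classes both of these accessions as targets of nonsense-mediated decay. Of the 9 Hnrnp genes that were not tested, 7 have more than 1 accession; Hnrnpa3, Hnrnpd, Hnrnpm and Hnrnpr were at 0 in all 4 libraries, and Hnrnpab, Hnrnpc and Hnrnpf held 0 to 7 counts per library. The other 2, Hnrnph3 and Hnrnpa1l2-ps2, have a single accession and held 1 to 9 counts. Hnrnpa1l2-ps2 is a pseudogene by its symbol, but the RefSeq annotation used here lists it as protein-coding.

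The U2 auxiliary factor was measured only through U2af1l4, a paralog of the small subunit. Its levels of 14.8 and 13.2 CPM in control and 13.7 and 12.3 CPM in LPS overlapped, with a log2 fold change of -0.10 ± 0.27 (adjusted p = 0.89). The large subunit gene U2af2 was at 0 in all libraries and the small subunit gene U2af1 had 3, 10, 2 and 4 counts; each has 2 accessions and neither was tested.

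All 9 genes named Sf3a or Sf3b were tested, with a single accession for each, and 0 of 9 were called. Proteins of these complexes encoded by genes with other names are outside the rule. All 3 Sf3a genes had fitted values above 0. Sf3a3 had 33.1 and 33.5 CPM in control and 46.9 and 46.6 CPM in LPS. The replicates of each group differed little, and the log2 fold change was 0.49 ± 0.21 (adjusted p = 0.26; interval -0.031 to 1.01). Sf3a1 had 54.6 and 35.1 CPM in control and 71.2 and 46.9 CPM in LPS, high in the libraries numbered 1 of both groups (0.40 ± 0.33, adjusted p = 0.58; 0.082 without control replicate 2 and 0.068 without LPS replicate 1). Sf3a2 rested on few counts, 25 and 15 without LPS and 34 and 21 with it (0.50 ± 0.53, adjusted p = 0.68).

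Sf3b3 came nearest to a call in the TMM-scaled edgeR fit without a term for the replicate number. This gene (chr8:110810491-110846806), which encodes a large scaffold subunit of the Sf3b complex, had 137 and 130.4 CPM in control and 217 and 221 CPM in LPS. The groups were well apart relative to the spread within each. The log2 fold change was 0.71 ± 0.18, or 1.63-fold with an interval of 1.19 to 2.23, the only member interval that excludes no change, and its adjusted p was 0.084. By p it ranked 1043 among the 9548 genes tested. Leaving out 1 library at a time gave log2 fold changes of 0.64 to 0.74 with adjusted p from 0.20 to 0.38. The value was 0.28 with total-count scaling and 0.15 with total-count scaling that left out the 10 most abundant genes.

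Sf3b1, the branch point subunit that is often mutated in myelodysplastic syndromes, had the most counts of all members. Its levels were 654 and 714 CPM in control and 832 and 864 CPM in LPS. Both LPS libraries lay above both controls, with a log2 fold change of 0.31 ± 0.18 (adjusted p = 0.41) and an interval of -0.13 to 0.75 that excludes a doubling. Sf3b2, the partner of Sf3b4, was the only member lower in both LPS libraries than in both controls, with 39.7 and 35.7 CPM in control and 27.7 and 30.7 CPM in LPS (log2 fold change -0.37 ± 0.22, adjusted p = 0.44). Sf3b6, the subunit next to the branch point adenosine, had 40.8 and 60.5 CPM in control and 59.9 and 82.6 CPM in LPS, with the libraries numbered 2 high in each group (0.49 ± 0.29, adjusted p = 0.43; 0.23 without control replicate 1, 0.24 without LPS replicate 2 and 0.78 without control replicate 2). Sf3b4 had 49.3 and 15.1 CPM in control and 64.0 and 19.1 CPM in LPS. Its libraries numbered 1 were more than 3 times those numbered 2, and the interval of its log2 fold change of 0.38 ran from -1.46 to 2.22, the widest of all members. Sf3b5, the smallest subunit, had a log2 fold change of 0.13 ± 0.36.

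Among the Snrp genes, 9 of 12 were tested, 0 were called and all 9 fitted values were above 0 (median log2 fold change 0.21), which did not hold with total-count scaling (median -0.25). Of the Sm ring proteins, Snrpb (SmB) had 81.3 and 58.9 CPM in control and 120 and 84.3 CPM in LPS. Both LPS libraries exceeded both controls, by little for LPS replicate 2, and the log2 fold change was 0.54 ± 0.28 (adjusted p = 0.36), or 0.27 without LPS replicate 1 and 0.30 without control replicate 2. Snrpd1, Snrpd2, Snrpd3, Snrpe and Snrpg had log2 fold changes of 0.047 to 0.21 with SE of 0.21 to 0.37. Snrpe, the SmE protein, had 38.9 CPM in each control and 42.6 and 44.0 CPM in LPS, and its interval of -0.36 to 0.67 excludes a doubling. Of the proteins of U2 snRNP, Snrpa1, which has leucine-rich repeats, had 13.0 and 13.4 CPM in control and 22.6 and 16.4 CPM in LPS (0.57 ± 0.29, adjusted p = 0.35; 0.32 without LPS replicate 1). Its partner Snrpb2, which binds a stem-loop of U2 snRNA, had 25.2 and 49.6 CPM in control and 45.9 and 59.2 CPM in LPS, with overlap (0.49 ± 0.37, adjusted p = 0.55; 0.078 without control replicate 1 and 1.04 without control replicate 2). Snrpc, the C protein of U1 snRNP that contacts the 5′ splice site, had 18.5 and 13.8 CPM in control and 25.3 and 19.1 CPM in LPS (0.46 ± 0.30, adjusted p = 0.47). Snrpa and Snrpn, with 3 accessions each, and Snrpf, with a single accession, held 0 to 3 counts per library and were not tested. Sm proteins have many processed pseudogenes, and the mapping of reads shared with them is not given in the sources used here.

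**Figure D3:**
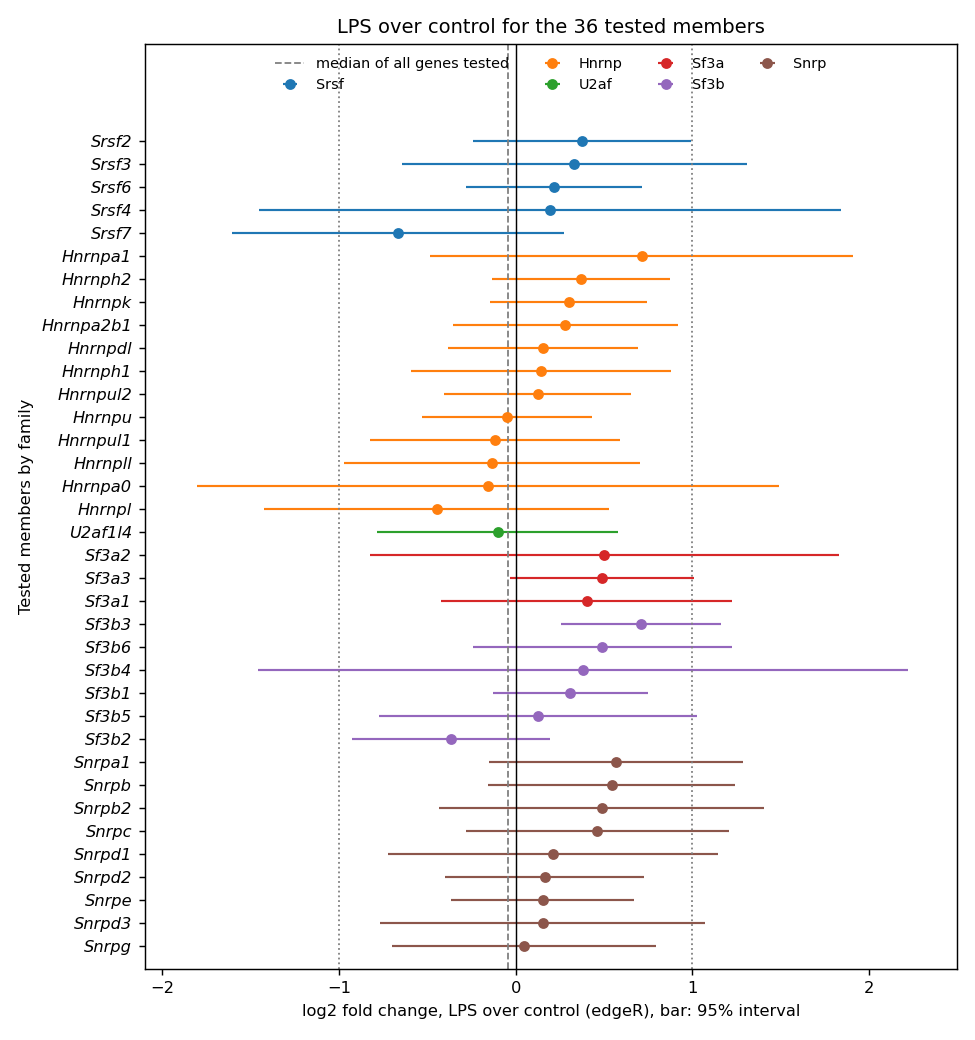
Log2 fold change of LPS over control from edgeR for the 36 tested members (points) with 95% intervals (bars), coloured by family; the solid line is no change, the dashed line the median of all genes tested (-0.046) and the dotted lines a 2-fold change. The points lie between -0.67 and 0.71, and only the interval of Sf3b3 (0.26 to 1.16) leaves out no change.

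Levels of different genes were compared per length, as CPM per kilobase of the matching GENCODE transcript, for 30 tested members with a single accession. Sf3b5 was left out because its GENCODE transcript (3841 bases) is longer than its whole RefSeq gene (734 bases). Averaged over the groups, Sf3b1 led with 124 CPM per kilobase, followed by Hnrnph1 (112), Hnrnpk (99.2), Srsf2 (91.7), Snrpe (81.7) and Snrpb (74.1). Srsf4 (3.23) and Sf3a2 (2.57) had the lowest levels per length. The level per kilobase of Hnrnph1 ran from 83.3 to 137 over the libraries and that of Sf3b1 from 106 to 139, so the difference between these neighbours is within the spread over libraries. Among the Sf3b genes compared, whose proteins are present together in U2 snRNP, levels per kilobase spanned from 10.4 for Sf3b2 to 124 for Sf3b1. Transcript lengths come from GENCODE and may differ from the annotation that was counted.

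For most members, libraries numbered 1 and 2 differed in the same direction in both groups. The ratio of replicate 2 to replicate 1 had the same sign in control and in LPS for 29 of 36 members. Its average absolute log2 value exceeded the absolute log2 fold change of LPS for 21 members. That ratio compares single libraries while the fold change compares groups of 2, so noise alone tends to make the ratio larger. No conclusion is drawn from the count of 21, and the shares over all genes tested were not computed. The ratio of replicate 2 to replicate 1 was more than 2-fold in both groups for Sf3b4 (log2 -1.67 in control and -1.72 in LPS) and Hnrnpa0 (-1.85 and -1.03). Snrpb2 (0.97 and 0.36) and Snrpd1 (0.90 and 0.49) were higher in the libraries numbered 2. Oligodendrocyte markers, at 386 and 398 CPM in the libraries numbered 1 against 56.6 and 46.9 CPM in those numbered 2, moved with the library number as well; their part in the values of these members was not tested. Within the libraries numbered 1 the median log2 ratio of LPS to control over the 36 members was 0.27, and within those numbered 2 it was 0.26.

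**Figure D4:**
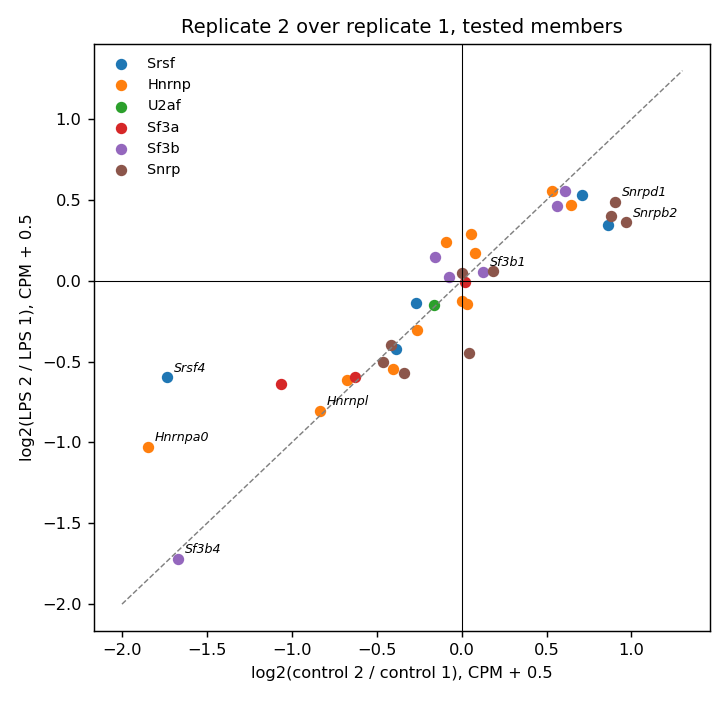
Log2 ratio of replicate 2 to replicate 1 (CPM plus 0.5) in control (horizontal axis) and in LPS (vertical axis) for each tested member, coloured by family; the dashed line marks equal ratios. Sf3b4, Hnrnpa0 and Srsf4 lie far to the lower left, higher in the libraries numbered 1, and 29 of 36 points have the same sign on both axes.

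Other genes of the splicing pathway were read from the same fit in 7 lists. Of 114 tested genes, 5 were called higher and 0 lower, where 6.55% of all genes tested were called higher and 1.79% lower; the median log2 fold change of the 114 was 0.13. A further 42 listed genes, each with several accessions, were too low to test. Called were 1 of 26 splicing regulators, 1 of 29 Prp, DExD/H-box and tri-snRNP proteins, 1 of 21 LSm and snRNP assembly proteins, 1 of 13 exon junction and nonsense-mediated decay factors and 1 of 13 cleavage and polyadenylation factors. None of 7 kinases and import factors of SR proteins and none of 5 minor spliceosome proteins was called.

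Magohb, a paralog of the exon junction protein Magoh, had 4.50 and 6.20 CPM in control and 18.5 and 27.5 CPM in LPS. Every LPS value was above the controls by a wide margin, and Magohb rose by a log2 of 2.09 ± 0.36 (edgeR adjusted p = 0.024). It was no longer called when LPS replicate 1 (0.052) or LPS replicate 2 (0.12) was left out and with both total-count scalings (0.062 and 0.058; range over all settings without a block 0.0010 to 0.12). Prpf38a, needed to activate the spliceosome, had 21.5 and 31.4 CPM in control and 118 and 85.1 CPM in LPS and rose by 1.94 ± 0.30 (adjusted p = 0.017). Among 14 alternatives it lost its call in 1, without LPS replicate 1 (adjusted p = 0.097, range 1.4e-05 to 0.097).

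Tra2a, an SR-like splicing activator, had 54.0 and 64.3 CPM in control and 122 and 144 CPM in LPS and rose by 1.17 ± 0.22 (adjusted p = 0.032). Cpsf2, a subunit of the cleavage and polyadenylation factor, had 109 and 139.5 CPM in control and 255 and 266 CPM in LPS and rose by 1.07 ± 0.21 (adjusted p = 0.038). Tgs1, which makes the trimethylguanosine cap of snRNAs, had 56.9 and 60.1 CPM in control and 114 and 121 CPM in LPS and rose by 1.00 ± 0.20 (adjusted p = 0.037). All 3 kept values above 0 in every alternative, but their calls held in only 7 (Tra2a), 7 (Cpsf2) and 6 (Tgs1) of 14. Each of these calls was lost with both total-count scalings, with limma-trend and with quantile normalization. The calls of Tra2a and Cpsf2 were lost without control replicate 1 (adjusted p = 0.091 and 0.11), LPS replicate 1 (0.12 and 0.18) or LPS replicate 2 (0.20 and 0.19), and that of Tgs1 without any 1 library (0.094 to 0.22). Over all these alternatives the adjusted p ran from 0.0042 to 0.20 for Tra2a, 0.0064 to 0.27 for Cpsf2 and 0.014 to 0.22 for Tgs1.

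**Figure D5:**
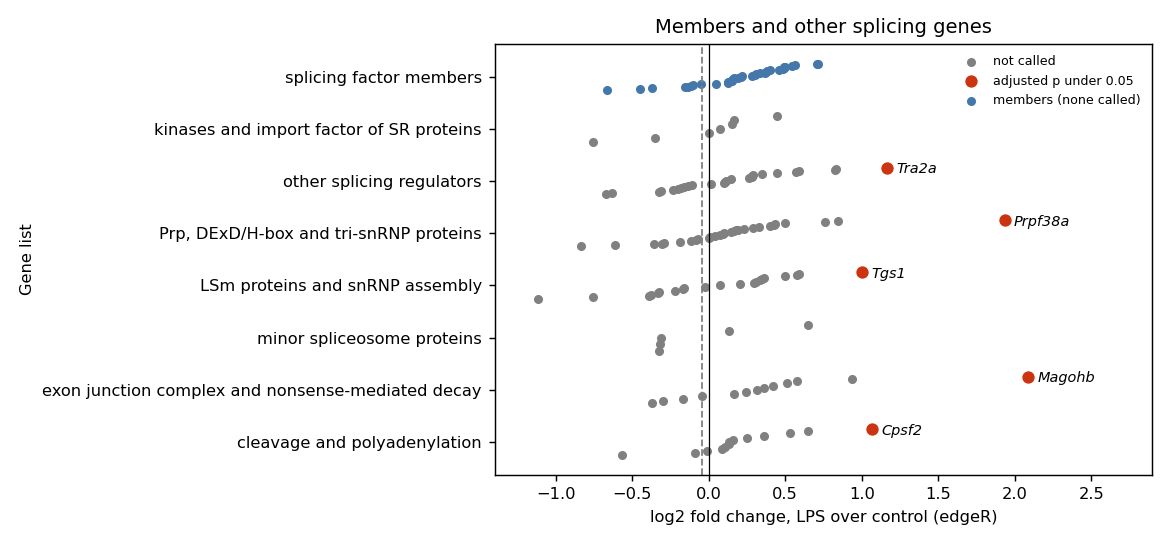
Log2 fold change of LPS over control from edgeR (horizontal axis) for the members (blue) and for the tested genes of 7 lists of other splicing genes (grey, or red where the adjusted p was under 0.05); rows are gene lists, the dashed line is the median of all genes tested and the height of a point within its row only separates points. The 5 called genes lie between 1.00 and 2.09, to the right of all members.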

How the data were processed

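The deposited table gives whole-number counts in 4 libraries for 32915 RefSeq accessions. Its name says normalized, but no sign of rescaling was found in the values, and they were used as counts. Per the submitters' processing notes, the tools were HTSeq 0.6.1, TopHat2 2.0.10, Trimmomatic 0.33, Cufflinks 2.2.1 and CASAVA 1.8.2, and the build mm10; what each did, the annotation, the counting mode and the strand setting are not given in sources used here. Accessions were matched to symbols with RefSeq (GRCm38.p6; 32487) and GENCODE M21 tables (187), and 241 matched neither (20.1% to 24.9% of counts). Counts were summed per symbol. Each unmatched accession was kept as a gene of its own. These entries are part of the 24148 genes, of the totals and, where counts sufficed, of the 9548 genes tested. Genes averaging 10 or more counts were tested with edgeR 4.0.16 (R 4.3.3; quasi-likelihood, TMM, no covariate, Benjamini-Hochberg over all genes tested, two-sided), checked on simulated data. The SE is the size of the log2 fold change divided by the square root of F, and 95% intervals use the moderated degrees of freedom and are not adjusted for the number of genes. CPM divides by TMM-scaled totals of the tested genes, with TMM factors of 1.05, 1.28, 0.820 and 0.906. DESeq2 1.42.0, limma 3.58.1, other scalings, filters, a block and left-out libraries were alternatives. The limma fits used log2 counts (pseudocount 1), not scaled for library size in limma-trend and quantile-normalized in the other fit. Replicates differed beyond sampling noise (chi-square divided by its degrees of freedom: 34.3, control; 25.4, LPS). Unused columns numbered 0. The members and lists were chosen with earlier results of these data known. Of the members, those with values in every library are, per family, the 2 largest positive and 2 largest negative fitted values and the 2 most abundant; others were added for their role or library pattern after their values were seen. Of the other lists, up to 3 called genes per direction are named.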

Additional observations from a re-analysis of the deposited data

How the results depend on the processing

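Under every alternative without a block, 0 members were called. Over these edgeR, DESeq2 and limma alternatives, the lowest adjusted p was 0.056 for Sf3b2 and 0.067 for Sf3b3. It was 0.096 for Srsf7 and 0.097 for Hnrnpl. The lowest log2 fold changes were -0.93 for Sf3b2, -1.23 for Srsf7 and -1.02 for Hnrnpl, and the highest for Sf3b3 was 0.81. With the replicate number as a block, 6 members were called higher and 2 lower, where 30.7% of all genes tested were called (1676 higher and 1258 lower, against 625 and 171); the block also gave 26 higher and 5 lower in the other splicing lists. Its calls were Sf3b3 (0.71, adjusted p = 8.9e-05), Snrpb (0.54), Sf3b6 (0.50), Sf3a3 (0.49), Snrpb2 (0.53), Srsf2 (0.37), Hnrnpl (-0.45) and Srsf7 (-0.66). Deviations of the libraries numbered 1 from their group means correlated between control and LPS (Pearson r = 0.66 across 9548 genes and 0.90 across 36 members; genes are not independent). With only 2 numbers this does not show that the libraries were paired.

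With total-count scaling and the same without the 10 most abundant genes, 489 and 877 genes were lower (322 after quantile normalization). The median log2 fold change of the members was then -0.20 and -0.35, that of Srsf -0.19 and -0.35, Hnrnp -0.31 and -0.43, U2af -0.53 and -0.67, Sf3a 0.053 and -0.076, Sf3b -0.077 and -0.23 and Snrp -0.25 and -0.35. Values turned negative in both scalings for Hnrnph1 (-0.31, -0.42), Hnrnph2 (-0.071, -0.20), Hnrnpk (-0.14, -0.27), Sf3a1 (-0.020, -0.17), Sf3b1 (-0.13, -0.26), Srsf2 (-0.052, -0.19), Srsf3 (-0.13, -0.23) and Srsf6 (-0.21, -0.35), and only in the second for Sf3a2 (-0.066), Sf3a3 (-0.076), Sf3b6 (-0.070), Snrpa1 (-0.0094), Snrpb (-0.027) and Snrpb2 (-0.082). Quantile normalization gave medians of 0.057 (members), -0.31 (Hnrnp), 0.30 (Sf3a) and 0.15 (Sf3b), and negative values for Hnrnph1 (-0.37), Hnrnpk (-0.28), Sf3b1 (-0.51), Srsf2 (-0.13) and Srsf6 (-0.30). The members' median was 0.32 without a filter and 0.11 at a minimum mean of 50; the Sf3a median was then 0.60 and 0.34, and 0.51 with RLE scaling, 0.50 in DESeq2 and 0.40 in limma-trend. Without a filter U2af1l4 had a value of 0.0025. The cause of these shifts was not tested.

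In the other lists, total-count scaling gave 1 higher and 1 lower gene, the same without the 10 most abundant genes 1 and 4, and limma-trend and quantile normalization 2 higher each. Leaving out 1 library at a time gave 335 to 629 higher and 33 to 260 lower genes, 0 to 4 higher in the other lists, and medians of 0.20 to 0.28 (members), 0.059 to 0.35 (Srsf), 0.027 to 0.24 (Hnrnp), 0.14 to 0.30 (Snrp), -0.22 to -0.028 (U2af) and 0.082 to 0.74 (Sf3a). It turned the sign of Hnrnpa0 (-0.86 to 1.04), Hnrnph1 (-0.15 to 0.48), Hnrnpl (-0.91 to 0.013), Sf3a2 (-0.030 to 1.17) and Srsf3 (-0.042 to 0.84). The number of libraries limits precision: SE of member log2 fold changes ran from 0.18 to 0.74.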
